A study of Mus musculus with 14 samples.

Results

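The mature miRNAs with names from miR-6980 to miR-7067 are a block of late-numbered entries in the table deposited for this study. Members were chosen by name alone, as every mature miRNA whose name is a plain number in this range followed by the arm, and no measured value entered the choice. The rule found 174 of the 1966 mature miRNAs of the table. These are the 5p and 3p arms of 87 hairpins, with both arms listed for every hairpin and 1 locus for every arm. miR-7036a and miR-7036b carry a letter after the number and fall outside the rule.

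The study sequenced small RNA from cultured neurons and from the medium around them. The neurons were primary cells from the cortex of C57BL/6 embryos, taken at E17.5. Cultures received 1 µM staurosporine, a kinase inhibitor used to induce apoptosis, or the solvent DMSO, for 8 h. Of the medium there were 4 samples after each treatment, and of the neurons 3 after each, 14 in all. The 14 columns of counts in the table are headed by library codes that the sources used here tie to no sample, so no count entered any step. Detection, abundance, the ratio of the arms and the check of the cells against marker miRNAs were therefore not analysed here. The methods kept reads of at least 36 bases after trimming, whereas the mature arms of the block are 18 to 26 bases long, and what this did to the counts was not tested. What follows describes the positions the table assigns to these miRNAs on the mouse build GRCm38 and the sequences behind them. Positions and sequences carry no replicate error.

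Most animal miRNAs are cut from a long primary transcript by the nuclear enzyme Drosha, and the resulting hairpin is then cut by Dicer into a 5p and a 3p arm. A mirtron is a hairpin that skips Drosha, because the splicing machinery makes its ends when it removes a short intron. In a conventional mirtron the 5p arm opens the intron at its 5′ splice site and the 3p arm closes it at its 3′ splice site. In a 5′-tailed mirtron only the 3p arm lies at a splice site, and a stretch of intron precedes the hairpin and has to be trimmed. Introns of the major class begin with GU and end with AG, and a run of pyrimidines usually precedes the final AG.

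The hairpins below show these layouts, in RNA letters 5′ to 3′ as RefSeq holds them for GRCm38.p6, with the 2 mature arms in capitals. miR-7018 (chromosome 4, 137538286 to 137538370, plus strand) is shown because its arms open and close 1 intron of Hspg2. miR-7058 (chromosome 7, 126367971 to 126368045, minus strand) is shown because the annotated hairpin is a whole intron of Lat although the 5p arm starts inside it. miR-7009 (chromosome 3, 36475461 to 36475524, minus strand) shows the tailed layout, in Anxa5. Its 5p arm begins 53 bases into the intron, against a median of 403 bases over the 85 hairpins held by an intron. miR-7007 (chromosome 3, 20222290 to 20222359, minus strand) has a 3p arm that stops short of the intron end in Cpa3. miR-7025 (chromosome 5, 75176831 to 75176904, plus strand) has the 3p arm farthest from an intron end, in Pdgfra.
miR-7018: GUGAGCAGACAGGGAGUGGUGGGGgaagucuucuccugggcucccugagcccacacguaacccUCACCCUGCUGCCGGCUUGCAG
miR-7058: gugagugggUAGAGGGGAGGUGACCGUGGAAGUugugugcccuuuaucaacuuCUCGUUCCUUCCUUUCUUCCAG
miR-7009: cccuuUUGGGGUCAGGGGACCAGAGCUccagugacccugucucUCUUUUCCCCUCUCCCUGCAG
miR-7007: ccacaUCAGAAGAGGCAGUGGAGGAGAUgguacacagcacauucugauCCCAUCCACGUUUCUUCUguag
miR-7025: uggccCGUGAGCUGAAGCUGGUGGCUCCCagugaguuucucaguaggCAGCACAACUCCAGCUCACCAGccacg

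The 3p arms of the block lay at 3′ splice sites and the 5p arms did not lie at 5′ splice sites. The 3′ end of the 3p arm fell within 2 bases of the last base of an annotated intron of the same strand in 83 of 87 hairpins. Among all 890 loci of the table with a 3p arm, 228 did so (25.6%). The 5′ end of the 5p arm fell within 2 bases of the first base of an intron in 3 of 87 hairpins, beside 27 of 892 loci with a 5p arm (3.03%) over the whole table. The share of members at a 3′ splice site was thus 95.4%, against 18.1% of the other loci, and the share at a 5′ splice site was 3.45%, against 2.98%. These are counts over an annotation and no test was made of their difference.

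Of the 83 arms at a 3′ splice site, 70 ended exactly on the last base of the intron, 5 ended 1 base before it and 8 ended 2 bases before it. The arms of miR-7013-3p and miR-7007-3p lay just outside the limit, ending 3 and 4 bases before the intron end. miR-7029-3p ran 3 bases past it into an exon of Gcn1l1, and miR-7025-3p was the only arm farther away. The limit of 2 bases therefore separated no member by a wide margin other than miR-7025.

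**Figure D1:**
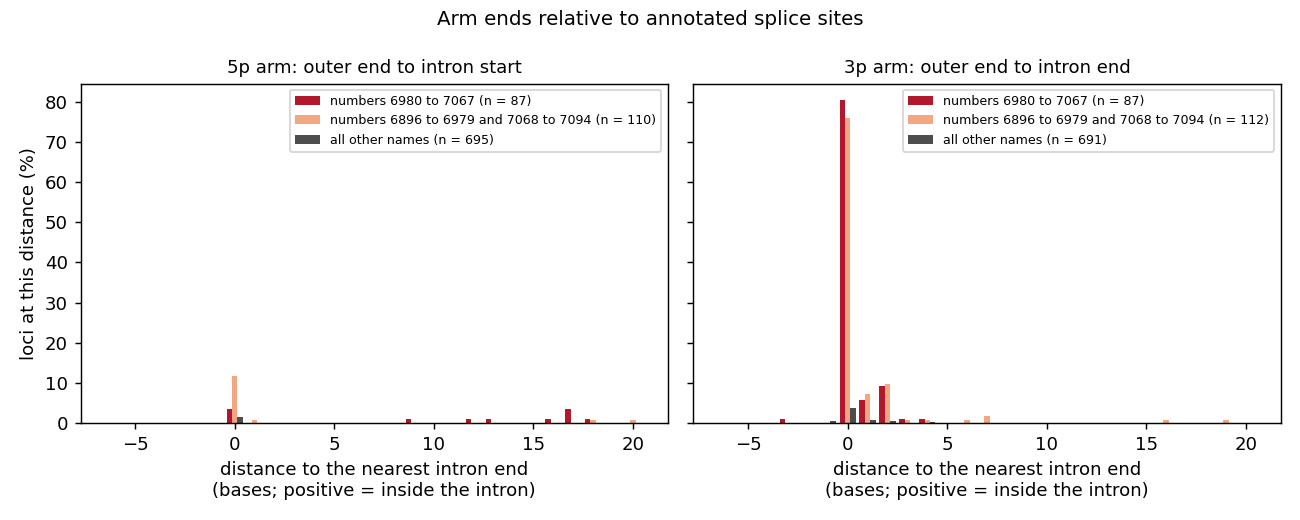
Percentage of loci (vertical axis) at each distance in bases from the outer end of the arm to the nearest intron end of the same strand (horizontal axis; positive values lie inside the intron), for 5p arms on the left and 3p arms on the right. Red bars are the 87 hairpins from miR-6980 to miR-7067, light bars the names from miR-6896 to miR-6979 and from miR-7068 to miR-7094, and dark bars all other names. The red bars gather at 0, 1 and 2 bases for the 3p arm and hold 3 loci at 0 for the 5p arm, the next lying 9 bases inside the intron.

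The 3p arms of the names on either side of the block were placed much like its own. Among loci from miR-6896 to miR-6979 and from miR-7068 to miR-7094, a range picked after the positions had been seen, 104 of 112 3p arms (92.9%) lay at an intron end, and 14 of 110 5p arms (12.7%) did. Once these neighbours were set aside, 41 of the remaining 691 3p arms (5.93%) lay at an intron end, and 10 of the remaining 695 5p arms (1.44%). Names with a letter after the number were not counted as neighbours, so any in this range stayed among the remaining arms. Among names with a plain number under 1000, which hold long-known miRNAs, 2 of 201 3p arms lay at an intron end (0.995%). Names with a letter or a locus number are not among these 201. For the 3p arm the percentages of the block and of its neighbours (95.4% and 92.9%) thus lay close together, whereas for the 5p arm they were 3.45% and 12.7%, and neither difference was tested. The percentages for the whole table include both sets.

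The numbers also follow the genome. Within a chromosome, 77 of 78 pairs of hairpins with neighbouring numbers lay in the order of their positions, the exception being miR-6980 and miR-6981. The block begins on chromosome 18, with 4 hairpins, goes on to chromosome 19 with 12 and then runs through chromosomes 2 to 8, with 19 hairpins on chromosome 7 and 15 on chromosome 5. miRBase gives its numbers in order of submission, and hairpins named along the genome in this way may have been entered together. Whether their place in an intron was a criterion for entry is not given in the sources used here and was not tested.

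The hairpins that RefSeq annotates were still closer to the splice sites than the arms were. A hairpin was available for 79 of the 87 members. Of these, 76 ended exactly on the last base of an intron, the exceptions being miR-7010 by 1 base, miR-7029 and miR-7025. All 12 hairpins whose 3p arm stopped 1 or 2 bases short, and for which both sequences were available, continued to an AG at the intron end. This AG follows from the position, because introns of the major class end with it. At the other side, 68 of the 79 hairpins began exactly 5 bases before the 5p arm, and 6 began on it. The 3′ end of the annotated hairpin thus coincided with a splice site in these 76, whereas its 5′ end mostly lay 5 bases before the arm. The ends of the other RefSeq hairpins of the table were not counted in this way. Neither trait can therefore be called particular to the block.

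Few hairpins of the block made up a whole intron. Both arms lay at the ends of 1 and the same intron in 3 of the 87 hairpins. How often this holds for the other hairpins of the table was not counted. miR-7018 filled an intron of 85 bases in Hspg2, which encodes the basement membrane proteoglycan perlecan. miR-6981 filled one of 115 bases in Arap3, a GTPase-activating protein, and miR-7060 one of 137 bases in Fbrs (chromosome 7, 127489251 to 127489387, plus strand). In miR-7018 and miR-7060 the 5p arm opened with the bases of the splice site. Judged by the ends of the RefSeq hairpin in place of the arms, 3 hairpins equalled an intron, namely miR-7018, miR-7060 and miR-7058. miR-6981, for which no hairpin was available in that table, was not judged. miR-7058 filled an intron of 75 bases in Lat, the adaptor of the T cell receptor, and its 5p arm began 9 bases into that intron.
miR-7018-5p: gUGAGCAGacagggaguggugggg
miR-7060-5p: gUGAGUGCuggguagaauggga
In these arms the capitals mark the seed, bases 2 to 8, the part that pairs with target mRNAs. The seed of both 5p arms thus starts at the second base of the intron.

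In the other hairpins a 5′ tail of intron preceded the 5p arm. For 85 of the 87 hairpins an annotated intron held both arms, and the shortest intron that ended at the 3p arm was taken as the host intron. Over all 85, the 3 that filled an intron included with a tail of 0, the tail was at most 20 bases in 11 hairpins, from 21 to 100 bases in 13 and over 100 bases in 61. Its median over the 85 was 403 bases and the longest was 9133 bases, in Sh2b3. The hairpins themselves varied far less, with a median of 60 bases from the start of the 5p arm to the end of the 3p arm and an interquartile range of 58 to 66 bases. The loop between the arms had a median of 16 bases. The table gives no information on whether such tails are removed in neurons.

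Host introns were shorter than introns in general at each quartile. 15 of the 85 host introns (17.6%) were at most 100 bases long, against 4.76% of 284220 distinct introns annotated outside miRNA genes in GENCODE M21. Their median was 465 bases, with an interquartile range of 127 to 1251. All introns had a median of 1485 bases and an interquartile range of 515 to 4143. The shortest after the Lat intron, all 77 bases, were those of Map4k2, a kinase of the stress pathway and host of miR-6989, of Pik3cd, the leukocyte catalytic subunit of phosphoinositide 3-kinase and host of miR-7023, and of Rabac1, host of miR-7046. 29 host introns were longer than 1000 bases. Where several introns ended at a 3p arm the shortest was taken, whereas the 284220 introns include the longer alternatives. How much this choice shortened the host introns was not tested.

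**Figure D2:**
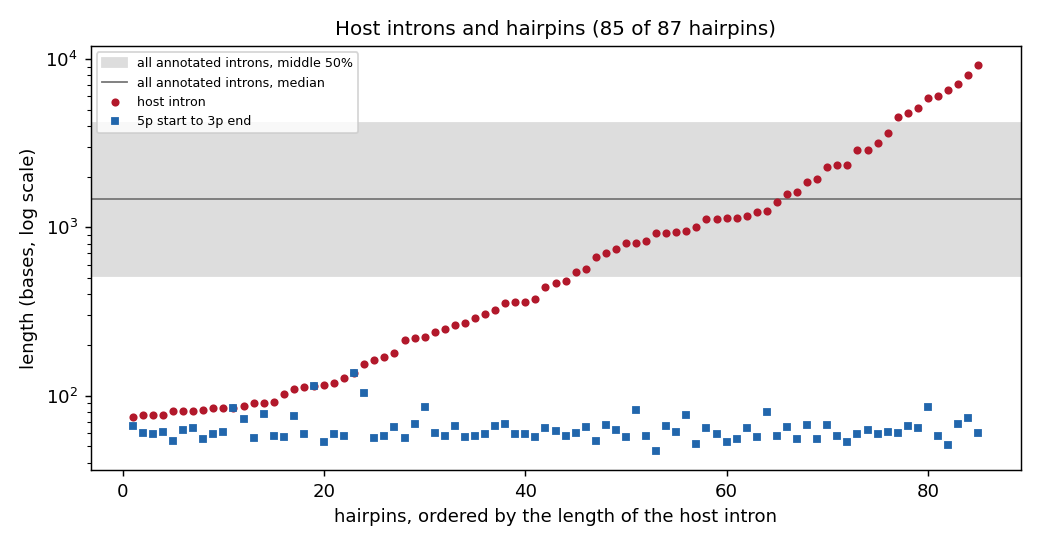
Length in bases on a log scale (vertical axis) of the host intron (circles) and of the hairpin from the start of the 5p arm to the end of the 3p arm (squares), for the 85 hairpins held by an intron, ordered by intron length (horizontal axis). The band and line give the interquartile range and the median (1485 bases) of all annotated introns. Hairpins stay near 60 bases while host introns run from 75 to 9193 bases, and circle and square meet in 3 hairpins.

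Every hairpin of the block lay inside a protein-coding gene transcribed from the same strand, 37 on the plus and 50 on the minus strand. The share of the table's other hairpins that lie in such a gene was not counted. Arap3 was the only gene that held 2 of them. The hosts named here were picked for their known roles after the list had been seen. Several are genes of neurons or glia. Camk2a encodes a calcium-dependent kinase of the synapse and holds miR-6982 at the end of an intron of 746 bases. Slc17a7 encodes the vesicular glutamate transporter VGLUT1 and holds miR-7055 at the end of 359 bases. Ptpn5 encodes the striatal phosphatase STEP and holds miR-7056, and Ncan encodes the brain proteoglycan neurocan and holds miR-7066. Others belong to blood and immune cells, such as Csf1r, the receptor of microglia and macrophages with miR-6983, Cpa3, a mast cell protease with miR-7007, and Lat with miR-7058. Others are used by nearly all cells, such as Eif3b, a translation initiation factor with miR-7038, and Pold1, a DNA polymerase subunit with miR-7053. No library was assigned to a condition, so nothing is said here of which hosts were transcribed in these cultures.

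Some of the hairpins are intronic in 1 transcript and exonic in another. 71 hairpins overlapped no annotated exon of their strand. The other 16 overlapped an exon of at least 1 transcript, 9 in a transcript annotated as a retained intron and 7 in one annotated as protein-coding, with miR-7029 and miR-7050 in both kinds. miR-6990 in Esrra and miR-7051 in Etfb overlapped an exon of another kind of transcript. Both arms of miR-7019 in Pink1, the kinase of damaged mitochondria, and of miR-7045 in Chd4, a chromatin remodeller, lay wholly in an exon of a protein-coding transcript. For these a read can come from an mRNA as well as from a hairpin, and the positions alone cannot tell these sources apart. None of the 174 members overlapped a mature miRNA of the opposite strand. These overlaps were not counted for the other names of the table, so they cannot be called particular to the block.

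miR-7025 and miR-7029 were the hairpins that no intron held. The 5p arm of miR-7025, bases 75176836 to 75176859 of chromosome 5, lay wholly in an exon of Pdgfra that ends at base 75176860, and its 3p arm began downstream of that exon, at base 75176878. Pdgfra encodes the platelet-derived growth factor receptor of oligodendrocyte precursors. This hairpin therefore straddles a 5′ splice site, whereas the 3p arms of the others end within 4 bases of a 3′ splice site. The 3 exonic bases of miR-7029-3p (chromosome 5, 115580984 to 115581005, plus strand) belong to an exon of Gcn1l1, a regulator of the response to amino acid starvation. After these and after miR-7007 and miR-7013, the next farthest were the hairpins whose 3p arm stopped 2 bases short. The first of them by number was miR-6984, in Mrpl21, which encodes a protein of the mitochondrial ribosome (3p arm on chromosome 19, 3288961 to 3288981, plus strand).

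The 3p arms carried the bases of a 3′ splice site. A mature sequence was available from RefSeq for 156 of the 174 members, 78 of each arm, and for 1675 of the 1966 names of the table. All 63 of the 3p arms with a sequence that ended exactly on the intron end closed with AG, 57 of the 78 3p arms closed with CAG, and 6 closed with UAG. The 5 arms that ended 1 base earlier all closed with A. Since introns of the major class end with AG, these endings follow from the positions and are no separate result. In total 64 of 78 3p arms ended with AG, against 132 of 629 other 3p arms, a set that includes the neighbouring numbers. Of these 64, the only one that did not end on an intron end was miR-7025-3p. The following 3p arms, with their last 2 bases in capitals, were chosen to show both kinds of end, the first 2 exact and the last 2 short by 2 bases.
miR-7009-3p: ucuuuuccccucucccugcAG
miR-7018-3p: ucacccugcugccggcuugcAG
miR-6984-3p: uacuuucuuuccugucuuuCU
miR-7047-3p: ucacccucacccuuccuccuuCC

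The 3p arms were rich in pyrimidines and the 5p arms in guanine. The median content of C and U was 72.7% in the 78 3p arms, with a range of 54.5% to 91.3%, and 57.1% in the 629 other 3p arms. It was 31.8% in the 78 5p arms and 45.8% in the 617 other ones. All 78 3p arms held more than 50% pyrimidines, as did 62.5% of the other 3p arms, whereas 4 of the 78 5p arms did. The highest contents were those of miR-7047-3p at 91.3%, miR-6984-3p at 90.5% and miR-7058-3p at 86.4%. The median content of G was 44.7% in the 5p arms, against 30.4% in the other 5p arms, and 14.3% in the 3p arms. A run of GGG was present in 56 of 78 5p arms and in 3 of 78 3p arms, against 37.3% and 21.1% of the other names. The other names include those from miR-6896 to miR-6979 and from miR-7068 to miR-7094. With these neighbours set aside, the median content of C and U was 54.55% in 534 other 3p arms and 50% in 523 other 5p arms. The median content of G in those 5p arms was 27.27%. Each of these medians moved away from that of the block, so the neighbours leaned the same way. Since the arms pair in the hairpin, the contents of the 2 arms are not independent.

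Along the 3p arm the pattern of a 3′ splice site could be read base by base. In the 63 exact arms a pyrimidine stood at the third base from the end in 98.4%, at the fourth in 60.3%, and at the fifth to eighth in 87.3% to 90.5%. In 503 3p arms of other names that lay at no intron end the share of pyrimidines at the third to eighth base ranged from 52.3% to 60.6%. Both sets of 3p arms were chosen by position. The contrast is therefore between arms at and away from intron ends, not between the block and other names. In the 5p arms guanine was most frequent at the fourth base, at 65.4%, against 38.9% in other 5p arms.

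**Figure D3:**
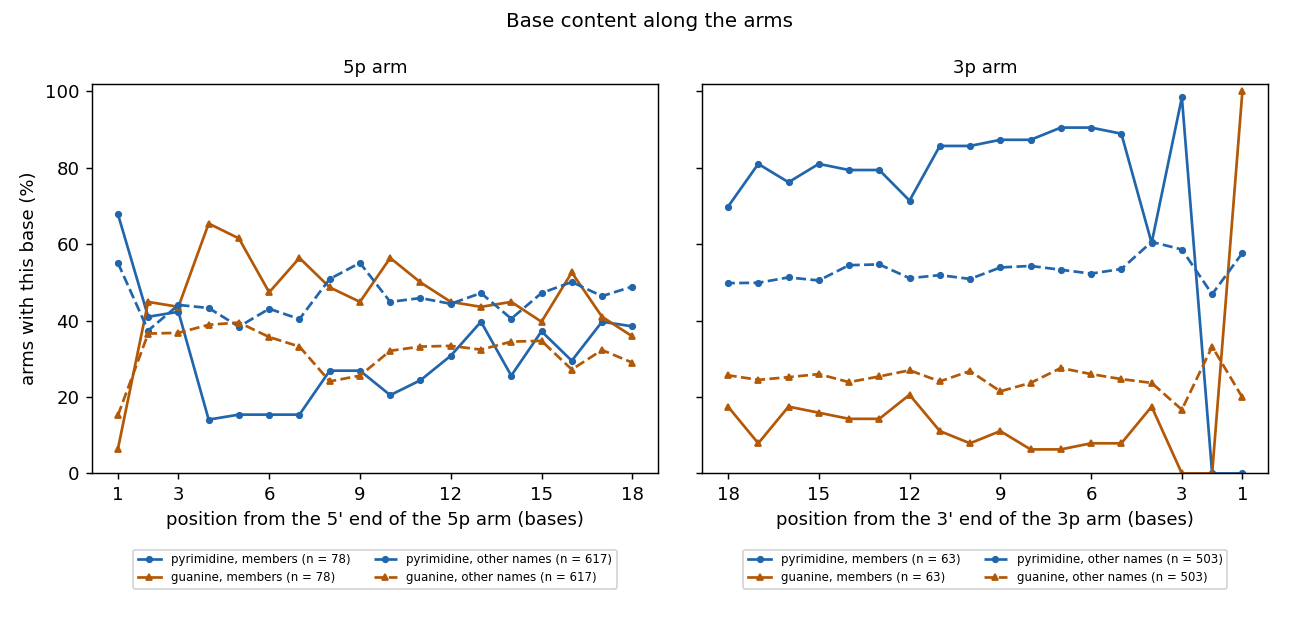
Percentage of arms (vertical axis) with a pyrimidine (circles) or a guanine (triangles) at each position in bases from the 5′ end of the 5p arm (left) and from the 3′ end of the 3p arm (right, counted backwards). Solid lines are members (78 5p arms, and the 63 3p arms that end exactly at an intron end), dashed lines other names (617 5p arms, and 503 3p arms at no intron end). The solid pyrimidine line stays above the dashed one from the fifth base to the eighteenth and falls to 0 at the last 2 bases, where the exact arms carry AG.

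The study looked at G and U content because GU-rich RNA is a ligand of the endosomal receptors TLR7 and TLR8. The median GU content was 61.9% in the 5p arms of the block and 47.6% in the 3p arms, beside 59.1% and 50.0% in other 5p and 3p arms. 130 of the 156 members had a GU content above 40%, 75 of 78 5p arms and 55 of 78 3p arms, and over all 1675 names 86.7% did. miR-7044-5p, in Rasgef1a, had 89.5% and miR-7024-5p, in Nelfa, a subunit of the negative elongation factor, had 85.7%. miR-6992-5p and miR-7026-3p had 78.3% each. The lowest were miR-7025-3p and miR-7046-3p, both at 22.7%, and miR-6985-3p and miR-7045-3p, both at 23.8%. The sequences at the ends of this order are shown with their seeds in capitals.
miR-7044-5p: gUGUGGUGgugguggcggc
miR-7024-5p: uUGGGGGAuggguugcuuggc
miR-7025-3p: cAGCACAAcuccagcucaccag
miR-7046-3p: uGAACCACccaucccccuacag

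The 7 short motifs that the study lists for human TLR8 or TLR7/8 were numbered here as motif 1 (UUAU), motif 2 (UAUA), motif 3 (GUAC), motif 4 (UCUC), motif 5 (UUUC), motif 6 (UUGU) and motif 7 (UGUUC). Exact matches on the mature strand were counted, and matches could overlap. At least 1 was present in 51 of the 78 3p arms (65.4%), against 46.0% of all 707 3p arms with a sequence. In the 5p arms it was 10 of 78 (12.8%), against 31.1% of all 695. The 3p arms therefore held such motifs more often, and the 5p arms less often, than the table as a whole by count, and no test was made. Names from miR-6896 to miR-6979 and from miR-7068 to miR-7094 are part of these comparisons. With them set aside, the share of other 3p arms with a motif fell from 43.6% to 39.3%. That of other 5p arms rose from 33.4% to 37.9%. The neighbours thus leaned the same way as the block, and the pattern was not particular to it. UCUC was present in 35 of 78 3p arms (44.9%) and in 17.8% of other 3p arms, and UUUC in 20 (25.6%) and in 13.5%. Without the neighbours, UCUC was present in 12.7% of other 3p arms and UUUC in 12.9%. Both strings consist of pyrimidines alone, like the stretch before a 3′ splice site. Of the motifs that hold a purine, motif 6 occurred in 5 of the 3p arms, motif 1 in 3, motif 7 in 2, motif 3 in 1 and motif 2 in 0. A match is a string in a sequence and says nothing on whether the receptor responds to it.

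**Figure D4:**
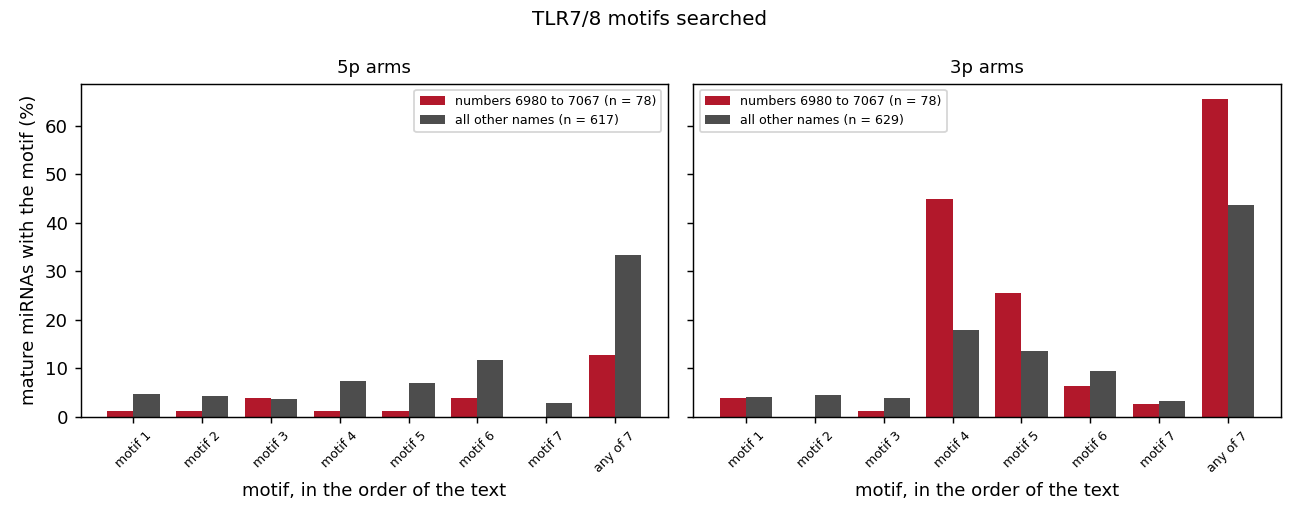
Percentage of mature miRNAs (vertical axis) that hold each motif (horizontal axis; motifs 1 to 7 as numbered in the text), for 5p arms on the left and 3p arms on the right. Red bars are the 78 arms from miR-6980 to miR-7067 with a sequence, dark bars the 617 and 629 arms of all other names. On the right the red bars rise above the dark ones for motifs 4 and 5, at 44.9% and 25.6%, and on the left at least 1 motif is found in 12.8% of the red set.

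13 members, all 3p arms, held at least 2 different motifs, and 3 motifs were found in miR-6991-3p and miR-7042-3p. The share of other names with at least 2 motifs was not counted, so this is no trait of the block. In miR-6991-3p, positions being counted from the 5′ end, UUGU lay at bases 9 to 12, UGUUC at 10 to 14 and UCUC at 16 to 19. In miR-7042-3p UUGU lay at bases 8 to 11, UUUC at 12 to 15 and UCUC at 14 to 17 and again at 16 to 19. UCUC and UUUC also stood together in miR-6987-3p, miR-7009-3p, miR-7027-3p, miR-7043-3p, miR-7048-3p and miR-7057-3p. miR-7030-3p and miR-7050-3p held UUAU with UCUC, miR-7061-3p UUAU with UUUC, miR-7032-3p GUAC with UCUC, and miR-6993-3p UUUC with UUGU.
miR-6991-3p: gCAGCCCUuuguucuucuccag
miR-7042-3p: uGUCCCUUuguuuucucucag

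Seeds were mostly particular to 1 member. The 156 sequences held 149 different seeds, and none shared its whole sequence with another name. A seed was shared with at least 1 other mature miRNA by 40 members, which is 25.6% of 156, against 27.8% of all names with a sequence, and 14 of the 40 shared it with another member. miR-6999-5p shared its seed with miR-7054-5p, miR-6992-3p with miR-7015-3p, miR-6990-5p with miR-7032-5p, and miR-6993-5p with miR-7008-5p, miR-6922-5p and miR-705. Outside the late numbers, miR-6985-3p shared its seed with miR-673-5p, miR-7000-5p with miR-3062-3p, miR-7001-5p with miR-346-3p, miR-7003-5p with miR-491-5p, and miR-7002-3p with miR-218-5p. miR-218-5p is known from motor neurons and other neurons. miR-6991-5p shared its seed with miR-12190-3p. miR-7018-3p and miR-7023-3p shared theirs with miR-7068-3p, a group picked after it had been seen. Both groups are shown with the seed in capitals, and outside the seed the sequences differ.
miR-7002-3p: uUGUGCUUccccuugccag
miR-218-5p: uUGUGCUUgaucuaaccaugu
miR-7018-3p: uCACCCUGcugccggcuugcag
miR-7023-3p: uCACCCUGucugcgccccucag
miR-7068-3p: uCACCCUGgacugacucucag

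The predicted folds overlapped with those of the other hairpins. The minimum free energy predicted by RNAfold, divided by length because longer hairpins hold more pairs, had a median of -0.396 kcal/mol per base in the 79 RefSeq hairpins of the block, with an interquartile range of -0.442 to -0.338. In the 910 other hairpins of the table it was -0.408, with a range of -0.468 to -0.343 between the quartiles. The hairpins of the block were shorter, with a median of 65 bases against 80. In the 73 hairpins with both arm sequences a median of 16 bases of the 5p arm paired with the 3p arm. The most negative value was -0.673, in miR-7032 of Hip1r, with 19 such bases, and the least negative was -0.249, in miR-6994 of Patl1. These are predictions from sequence and carry no measurement of structure.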

How the data were processed

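According to the methods and the submitters' notes, the authors trimmed reads with Trimmomatic 0.36, discarding those under 36 bases, aligned them with STAR 2.5.2b, counted them with featureCounts 1.6.2 on a miRBase annotation, and tested them with DESeq2 1.20. The deposited table holds, per mature miRNA, its name, chromosome, start, end, strand, length and 14 columns of counts. None of these 14 columns could be tied to a sample by its name, and none was used. The depth per library, the planned comparisons of staurosporine with DMSO by edgeR and all measures of precision were therefore not computed. The positions are annotation on GRCm38, as the file header states.

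Introns were taken between consecutive exons of every transcript of GENCODE M21, which is on the same build, leaving out miRNA genes. An arm was called at an intron end where its outer end lay within 2 bases of it on the same strand. Where several introns ended at a 3p arm, the shortest that held both arms was used. Sequences came from the RefSeq table for GRCm38.p6 by exact name, and folds from RNAfold 2.7.2, with Python 3.11.15 for the rest. The position and motif functions were tested on simulated gene models and sequences. The following were named by rule: hairpins with both arms at the ends of 1 intron, the 5 farthest from an intron end, the 3 highest and 3 lowest in GU content, the 3 highest in pyrimidines, and up to 10 each with a shared seed or at least 2 motifs. Other names were picked after they had been seen. The members, lists and rules were chosen with earlier results of these data known.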

Additional observations from a re-analysis of the deposited data

How the results depend on the processing

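The number of 3p arms at an intron end was 83 of 87 within 2 bases. It ranged from 70 with an exact match to 86 within 5 or 10 bases, and was 83 with introns of protein-coding transcripts only, with introns on either strand and with the basic transcript set. The number of 5p arms was 3, and 4 within 10 bases. The number of hairpins with both arms at the ends of 1 intron was 3, and 4 within 10 bases. It was also 3 by the ends of the RefSeq hairpin, but with miR-7058 in place of miR-6981. The 61 members with a motif stayed 61 when UAUU and GUUGUGU were added. The share of other 3p arms at an intron end fell from 18.1% to 5.93% without the names from miR-6896 to miR-6979 and from miR-7068 to miR-7094, a setting added after the positions had been seen, as was the basic transcript set.

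All fits to the counts, including DESeq2, the count without a filter and the omission of single replicates, were not run. No paired analysis was possible because no library is matched to a replicate number. Without counts, sequencing depth limits none of these values. The annotation does: introns were limited to those in GENCODE M21, and base contents to the members with a sequence, 18 of the 174 being without one.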
